A study of Mus musculus with 4 samples.

Results

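The 10 genes described here encode proteins through which tumor cells are known to hold back immune cells: *Cd47*, *Cd24a* and *Cd200*, *Cd274* and *Cd276*, *Pvr* and *Nectin2*, *Nt5e*, *Lgals9* and *Lgals3*. They were chosen by gene name, with earlier results of these data known, and are 10 of the 39179 genes in the count files. RNA-seq was performed on 2 libraries of parental B16F1 cells, an established mouse melanoma line used as control, and on 2 libraries of tumor repopulating cells (TRCs). TRCs are the same line after single cells had been seeded in soft 3D fibrin gels of 90 Pa stiffness and had grown into spheroids that were isolated on day 5. No engineered allele and no drug is named for either group. The TRC libraries hold the progeny of those cells that grew in the gel, so dimension of the culture, stiffness and survival cannot be told apart in this comparison. Both groups carry the replicate numbers 1 and 3, and nothing states that they were separate cultures, so the p-values measure the spread between these libraries, which may be technical.

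CD47 binds SIRPα on macrophages and restrains phagocytosis, and CD24 and CD200 engage other inhibitory receptors of myeloid cells. PD-L1, encoded by *Cd274*, restrains T cells through PD-1, and its relative B7-H3, encoded by *Cd276*, is a surface ligand of the same family. PVR and nectin-2 bind both the inhibitory receptor TIGIT and the activating receptor DNAM-1 of T and NK cells, CD73, encoded by *Nt5e*, produces the suppressive metabolite adenosine from AMP, and galectins are lectins that bind sugar chains of surface glycoproteins.

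Between 35948295 and 43511554 counts fell on genes per library, and a floor of 3 counts corresponded to between 0.0675 and 0.0850 CPM (TMM-normalized counts scaled to the size of the library), which covers counting error only. The melanocyte markers of this line were present, with 11 of 12 tested, 1 of them called (*Dct*, log2 fold change 1.08) and a summed level of 19780 and 16474 CPM in the parental libraries and of 24858 and 27611 CPM in the TRC libraries, while *Ednrb* was at or near 0. Of 24 leukocyte markers 13 had no count in any library, among them *Ptprc*, *Cd3e*, *Itgam* and *Adgre1*. The list summed to 7.22 and 3.63 CPM in the parental cells and 3.51 and 3.87 CPM in the TRCs. Only *Cd68* was tested, at 4.12 and 1.76 CPM in the parental cells and 1.59 and 1.85 CPM in the TRCs (FDR = 0.344). The remaining leukocyte markers had counts but did not pass the filter on low counts. Of 12 fibroblast and endothelial markers 4 were tested, 2 of them higher and 2 lower in TRCs at any size. Only 1 was called, *Col1a2*, which fell with a log2 fold change of −2.52, and the other 3 were not called. Over all genes tested 7.05% were called lower. This list summed to 13.6 and 10.7 CPM in the parental cells and 6.47 and 5.74 CPM in the TRCs. The part of these markers in the differences between the groups was not tested. Alignments that were not unique and were assigned to no gene made up 15.2% and 17.1% of the parental libraries (replicate 1, then 3) and 18.3% and 25.2% of the TRC libraries.

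Of the 10 genes, 7 passed the filter on low counts. *Cd276*, *Cd47* and *Nectin2* were upregulated in TRCs by between 2.01- and 2.51-fold, and none was downregulated, at a false discovery rate (FDR) under 0.05 in edgeR's exact test adjusted over all 11483 genes tested. Over all genes tested, 15.9% were called differentially expressed, of which the upregulated made up 8.81% of the genes tested and the downregulated 7.05%. In 4 of the 7 genes both TRC libraries lay above both parental libraries, against 30.2% of all genes tested, and for none did both lie below, against 30.4%, so the groups did not overlap in 4 of 7, against 60.6%. The log2 fold change was above 0 in 5 of the 7, against 50.3% of all genes tested. At an unadjusted p under 0.05, 4 were higher and 0 lower, against 14.8% higher and 13.2% lower of all genes tested. DESeq2's Wald test and the quasi-likelihood test of edgeR without a replicate block also called these 3 genes and no other member. The 7 genes had a median of 0.89 on the log2 scale, beside 0.0034 over all genes tested. An exact permutation test of 2 against 2 libraries cannot give a p below 0.333, so each call rests on the model fitted across genes. Since RNA was measured in bulk, more cells that express a gene and more RNA of it per cell cannot be told apart.

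**Figure D1:**
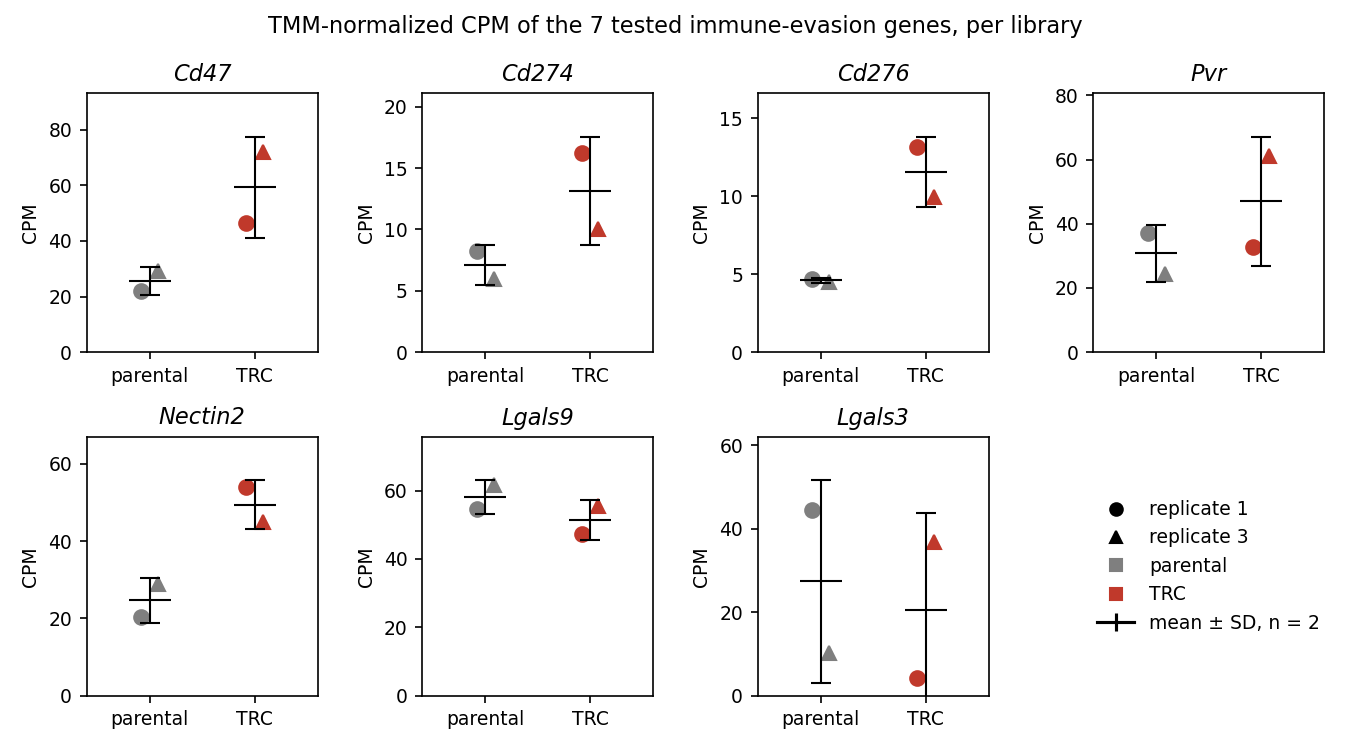
TMM-normalized CPM (y axis, linear from 0) of the 7 tested genes in each of the 4 libraries, with parental cells in grey, TRCs in red, circles for replicate 1 and triangles for replicate 3; the bars are mean ± SD (n = 2), and the lower end of the TRC bar of *Lgals3* runs below the axis. The TRC points of *Cd47*, *Cd276*, *Nectin2* and *Cd274* all lie above the parental points, while those of *Pvr*, *Lgals9* and *Lgals3* overlap them.

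Among the brakes on phagocytes, *Cd47* (ENSMUSG00000055447, GRCm38 chr16:49800533-49915010, plus strand) was the only gene that passed the filter on low counts. Parental replicates 1 and 3 had 22.0 and 29.2 CPM, and TRC replicates 1 and 3 had 46.3 and 72.2 CPM. Both TRC libraries were above both parental libraries, with TRC replicate 3 the highest. The mean went from 25.6 ± 5.14 CPM to 59.2 ± 18.3 CPM (SD, n = 2 each), a log2 fold change of 1.21 with an SE of 0.29 and a 95% interval of 0.63 to 1.79 (FDR = 0.000408). This ranked 598th of the 11483 genes by log2 fold change. Without TRC replicate 3 the log2 fold change was 0.85 and the call was lost (FDR = 0.0968), while leaving out any other library kept it. No stretch of 101 bases of its annotated transcripts, the length of an untrimmed read, occurred in the transcripts of a gene at another place.

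The 250 bases before the RefSeq start of *Cd47* (GRCm38.p6, chr16:49855404-49855653, plus strand) are shown because this gene rose, as are those of *Nectin2* and *Cd276* further on. Capitals mark ACGTG or GCGTG on either strand, the letters known as the core of the hypoxia response element to which HIF factors bind. The table of RefSeq starts holds 2 starts for *Cd47*, of which this is one.
Cd47: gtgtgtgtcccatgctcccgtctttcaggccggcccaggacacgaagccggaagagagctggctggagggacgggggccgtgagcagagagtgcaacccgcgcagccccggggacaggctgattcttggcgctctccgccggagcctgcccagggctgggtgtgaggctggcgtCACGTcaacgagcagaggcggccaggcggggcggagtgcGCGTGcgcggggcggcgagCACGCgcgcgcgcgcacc
The 3 matches begin 76, 37 and 18 bases before the start, and 74% of the 300 bases from 250 before to 50 after the start were G or C.

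*Cd24a* (ENSMUSG00000047139, chr10:43578284-43584265), whose product carries the sugars that Siglec receptors bind, had 1 and 2 counts in the parental libraries and 0 in both TRC libraries. *Cd200* (ENSMUSG00000022661, chr16:45382135-45409053), the ligand of CD200R, had 0 counts in 3 libraries and 1 in TRC replicate 1. Both were under the floor of 3 counts in every library, so no fold change is given. Transcripts of these genes were therefore not detectable above the floor at this depth in either group.

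Of the B7 family, *Cd276* (ENSMUSG00000035914, chr9:58524298-58555437, minus strand) had the largest log2 fold change of the 7 genes. It was measured at 4.70 and 4.51 CPM in the parental cells and at 13.2 and 9.97 CPM in the TRCs. The parental libraries were nearly equal and both TRC libraries lay above them. The mean rose from 4.60 ± 0.138 CPM to 11.6 ± 2.25 CPM (SD, n = 2 each), which is 1.33 on the log2 scale (SE 0.34, 95% interval 0.67 to 1.99, FDR = 0.00951) that ranked 480th of 11483. The call was lost without parental replicate 3 (log2 fold change 1.30, FDR = 0.0889) and without TRC replicate 1 (1.10, FDR = 0.217). It was also lost in a test with a replicate block, with a log2 fold change of 1.32 and FDR = 0.0578.

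None of the 101-base stretches of *Cd276* transcripts occurred in a gene at another place of the genome. The gene Gm10657 lies antisense to 416 bases, or 11.4%, of its exons and is not among the genes in the count files. The strand setting of the counting is not stated, so reads of Gm10657 from this stretch may be included in the counts of *Cd276*. The part of Gm10657 in the difference was not tested. The promoter of *Cd276* (GRCm38.p6, chr9:58555034-58555283, minus strand) was the richest in G and C of the promoters matched, at 78.3%.
Cd276: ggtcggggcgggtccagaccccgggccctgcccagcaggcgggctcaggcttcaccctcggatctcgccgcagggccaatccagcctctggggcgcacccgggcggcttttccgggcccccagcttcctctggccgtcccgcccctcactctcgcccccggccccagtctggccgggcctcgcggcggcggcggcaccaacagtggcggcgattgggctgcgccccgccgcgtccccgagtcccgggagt
The 250 bases hold no ACGTG or GCGTG. The motif occurred 2 times in the 50 bases from the start on, beginning at bases 23 and 38.

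*Cd274* (ENSMUSG00000016496, chr19:29367455-29388095, plus strand), which encodes PD-L1, showed 8.25 and 5.92 CPM in parental replicates 1 and 3 and 16.3 and 9.999 CPM in TRC replicates 1 and 3. The TRC libraries lay above the parental ones, but replicate 1 exceeded replicate 3 by 1.39-fold in the parental cells and by 1.63-fold in the TRCs. The means were 7.09 ± 1.65 CPM and 13.1 ± 4.43 CPM (SD, n = 2 each), and the log2 fold change of 0.89 (SE 0.37, 95% interval 0.17 to 1.61) did not pass the test, with an FDR of 0.120. Over the alternatives that kept all libraries the FDR was between 0.0583 and 0.218. The interval reaches beyond the fold changes of *Cd276* and *Cd47*, so the data do not show that PD-L1 transcripts behaved otherwise than these, a difference that was not tested. Transcripts of genes at other places held 0.114% of its 101-base stretches, and the annotated antisense gene AC119228.1 covers 511 bases, or 14.1%, of its exons. AC119228.1 is not among the genes in the count files, and its part in the counts of *Cd274* was not tested.

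Of the ligands of TIGIT and DNAM-1, *Nectin2* (ENSMUSG00000062300, chr7:19716644-19750483, minus strand) was upregulated. Its level was 20.5 and 28.8 CPM in the parental libraries and 54.0 and 45.0 CPM in the TRC libraries. The lowest TRC value was above the highest parental value, and neither replicate number was the higher one in both groups. The mean changed from 24.6 ± 5.87 CPM to 49.5 ± 6.32 CPM (SD, n = 2 each), a log2 fold change of 1.01 with SE 0.27 and a 95% interval of 0.48 to 1.53 (FDR = 0.00252), ranked 875th. The call was lost without parental replicate 1 (log2 fold change 0.78, FDR = 0.0567), without TRC replicate 1 (0.86, FDR = 0.108), and in the test with a replicate block (1.02, FDR = 0.0572). None of its 101-base stretches was shared with a gene at another place, and the antisense gene Gm20512, which overlaps 135 bases of its exons, had 3 to 5 counts per library.

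The promoter of *Nectin2* (GRCm38.p6, chr7:19749574-19749823, minus strand) held 2 of the same motifs, which begin 129 and 108 bases before the start.
Nectin2: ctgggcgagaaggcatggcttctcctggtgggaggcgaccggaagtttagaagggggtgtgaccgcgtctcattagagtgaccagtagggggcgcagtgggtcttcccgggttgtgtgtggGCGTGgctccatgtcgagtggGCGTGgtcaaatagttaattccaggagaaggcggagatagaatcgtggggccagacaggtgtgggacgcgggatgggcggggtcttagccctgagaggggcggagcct
In the table of RefSeq promoters 8 of the 10 genes were matched, all but *Pvr* and *Cd24a*. ACGTG or GCGTG occurred in 7 of the 8 windows of 300 bases, that is in those of *Cd47*, *Cd276*, *Nectin2*, *Cd274*, *Lgals3*, *Nt5e* and *Cd200*, and in 43.8% of all 27025 promoters. It was thus also found where the gene was not upregulated, and absent in *Lgals9*. G or C made up 78.3% of the window of *Cd276*, 74% of *Cd47*, 71% of *Nt5e* and 67% of *Lgals3*. The share was 62.7% for *Nectin2*, 58% for *Lgals9*, 52.7% for *Cd274* and 45% for *Cd200*. The median over all promoters was 52.7%, and the part of base composition in the matches was not tested. TTCNNNGAA and TTCNNGAA, forms of the site bound by STAT factors, occurred in 0 of the 8, beside 8.47% and 8.4% of all promoters. A pair of GAAA blocks with any 2 bases between them, known from interferon-responsive promoters, occurred in 1, that of *Lgals9*, beside 3.49%. A match of letters is a description and not a site of binding.

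*Pvr* (ENSMUSG00000040511, chr7:19903578-19921160, minus strand), the other ligand of this pair, was at 37.1 and 24.5 CPM in parental replicates 1 and 3 and at 32.8 and 61.3 CPM in TRC replicates 1 and 3. The groups overlapped, since TRC replicate 1 was below parental replicate 1, and the order of the replicates was opposite in the groups. The log2 fold change was 0.61 (SE 0.34, 95% interval −0.06 to 1.29, FDR = 0.201). Without TRC replicate 1 it was 0.97 and passed the test (FDR = 0.0469), whereas without TRC replicate 3 it was 0.079. The interval holds both no change and the log2 fold change of *Nectin2*, and the difference between these genes was not tested.

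*Nt5e* (ENSMUSG00000032420, chr9:88327197-88372092), which encodes the adenosine-producing ectonucleotidase CD73, had 0 counts in 3 libraries and 1 count in TRC replicate 3. It was thus not detectable above the floor of 3 counts in either group.

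The galectins did not differ beyond the spread of the libraries. *Lgals9* (ENSMUSG00000001123, chr11:78962974-78984946, minus strand), whose product is known as a ligand of TIM-3, was at 54.7 and 61.6 CPM in the parental cells and at 47.2 and 55.6 CPM in the TRCs. The groups overlapped, and the log2 fold change was −0.18 with an SE of 0.22 (FDR = 0.665). The 95% interval, −0.61 to 0.26, was the narrowest of the 7 genes and does not include a 2-fold change in either direction.

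*Lgals3* (ENSMUSG00000050335, chr14:47367751-47386160, plus strand), a galectin found both inside and outside cells, was the most variable of the genes. It was measured at 44.6 and 10.2 CPM in parental replicates 1 and 3 and at 4.26 and 37.0 CPM in TRC replicates 1 and 3. Parental replicate 1 was thus 4.36-fold above replicate 3, while TRC replicate 3 was 8.68-fold above replicate 1. The means of 27.4 ± 24.3 CPM and 20.6 ± 23.1 CPM (SD, n = 2 each) gave a log2 fold change of −0.41 with an SE of 1.52 and a 95% interval of −3.39 to 2.58 (FDR = 0.780). The direction turned to 1.01 without parental replicate 1 and to 0.41 without TRC replicate 1, and without TRC replicate 3 the value was −2.70 with an FDR of 0.0143. No direction of change can be given for this gene. None of its 101-base stretches was shared with a gene at another place, nor were those of *Lgals9* or *Pvr*.

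**Figure D2:**
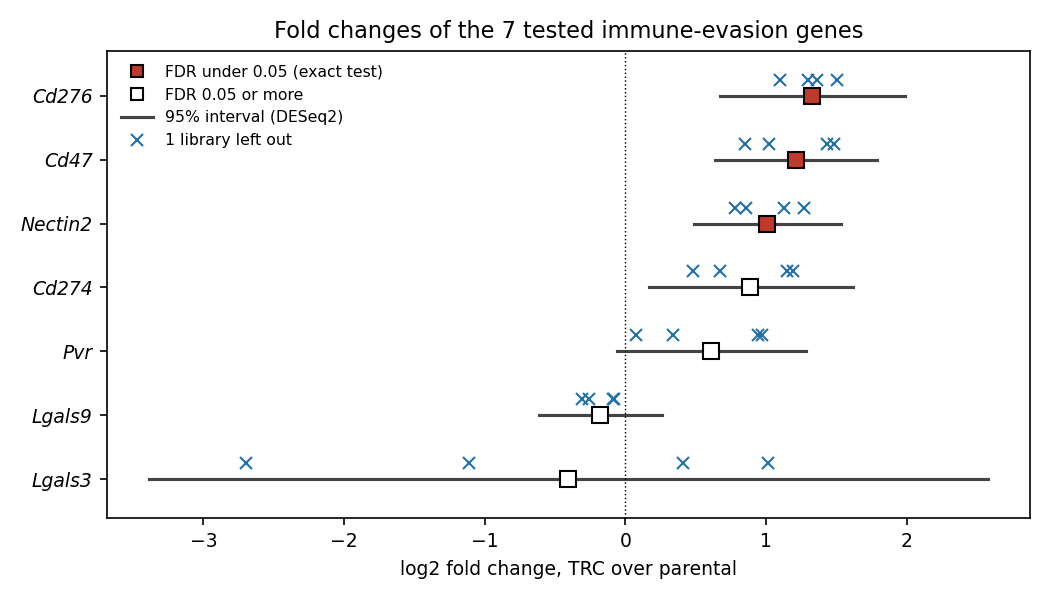
Log2 fold change of TRCs over parental cells (x axis) of the 7 tested genes (y axis) from edgeR, as squares filled red where the FDR was under 0.05, with the 95% interval from DESeq2 as a line and the values after leaving out each library as crosses. The intervals of *Cd276*, *Cd47*, *Nectin2* and *Cd274* lie above 0, and the crosses of *Lgals3* run from −2.70 to 1.01.

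Levels of different genes were compared only after scaling to the length of the annotated exons. In the parental cells the mean level was highest for *Lgals9*, at 27.2 ± 2.30 CPM per kilobase, followed by *Lgals3* at 14.7 ± 13.1, *Nectin2* at 7.05 ± 1.68, *Pvr* at 5.03 ± 1.46 and *Cd47* at 4.08 ± 0.819 CPM per kilobase (SD, n = 2). The lowest levels were those of *Cd274*, at 1.96 ± 0.455 CPM per kilobase, and *Cd276*, at 1.26 ± 0.0377 CPM per kilobase. The neighbours from *Lgals3* to *Cd47* in this order overlapped in their libraries, whereas *Lgals9* stood above *Lgals3*, *Cd47* above *Cd274* and *Cd274* above *Cd276* without overlap.

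In the TRCs *Lgals9* was again highest, at 24.1 ± 2.78 CPM per kilobase, followed by *Nectin2* at 14.2 ± 1.81, *Lgals3* at 11.1 ± 12.4, *Cd47* at 9.44 ± 2.91 and *Pvr* at 7.68 ± 3.29 CPM per kilobase. *Cd274* and *Cd276* remained lowest at 3.63 ± 1.22 and 3.16 ± 0.616 CPM per kilobase, and their libraries overlapped there. *Nectin2*, *Lgals3* and *Cd47* each overlapped the next gene in this order, whereas *Lgals9* stood above *Nectin2* and *Pvr* above *Cd274* without overlap. The levels and their order depend on the length used. With the longest transcript in place of all exons *Pvr*, *Nectin2* and *Lgals9* were at 16.2, 18.1 and 32.4 CPM per kilobase in the TRCs. *Lgals3* and *Cd47* were then at 14.5 and 11.3 CPM per kilobase, so the mean of *Pvr* lay above both.

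**Figure D3:**
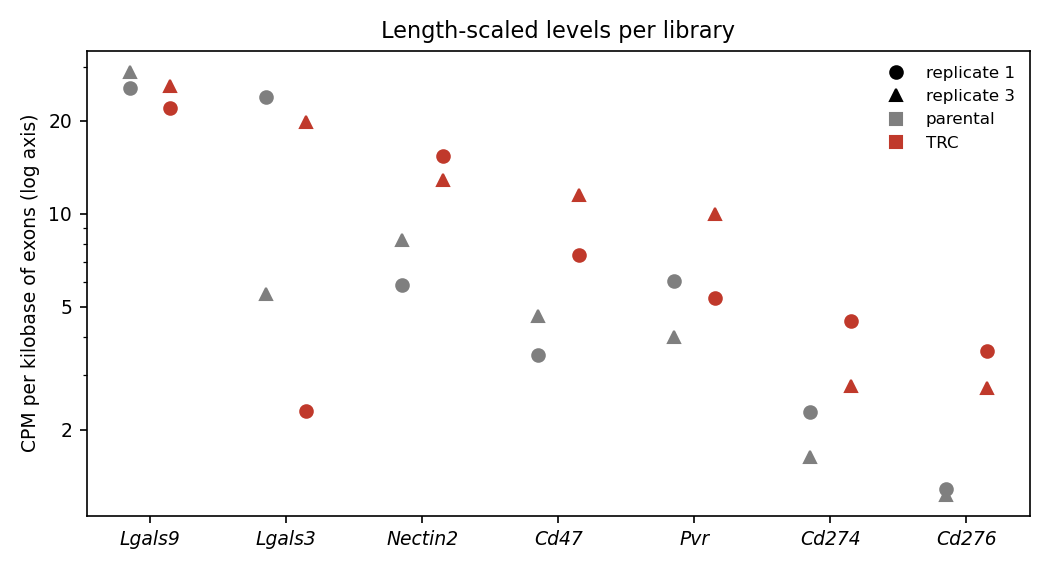
Level of the 7 tested genes (x axis) in CPM per kilobase of annotated exons (y axis, log scale) in each library, with parental cells in grey, TRCs in red, circles for replicate 1 and triangles for replicate 3. *Lgals9* is highest in both groups, *Cd274* and *Cd276* are lowest apart from TRC replicate 1 of *Lgals3*, and *Lgals3* shows the widest gap within a group.

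The partners and regulators of these proteins were examined through 10 gene lists with 178 genes in all. Only 170 of them were found in the count files, and 93 were tested. The names were matched through another annotation than that of the counts, so a gene not found may be present under another identifier. Of these, 21 were higher and 4 lower in TRCs (FDR under 0.05), and 68 were not called, with a median log2 fold change of 0.12. Over all genes tested 8.81% were called higher and 7.05% lower, and the counts of each list are to be read against these shares. The FDR values given next are from the same exact test over all 11483 genes.

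Of 15 tested genes among the eat-me signals and CD47 partners, 3 rose and 2 fell. *Stc1*, whose product stanniocalcin-1 is known to retain the eat-me signal calreticulin inside cells, was at 1.75 and 2.10 CPM in the parental cells and at 30.8 and 105 CPM in the TRCs, a log2 fold change of 5.14 (FDR = 2.77e-20). *Thbs2*, a relative of the CD47 ligand thrombospondin-1, rose by 2.55 on the log2 scale (FDR = 0.000219), a call lost without TRC replicate 1 (FDR = 0.0756). *Tmem30a*, a subunit of the flippases that keep phosphatidylserine on the inner leaflet, rose by 0.71 (FDR = 0.0171), but was called in none of the 4 fits that left out a library (FDR 0.0540 to 0.179). *Thbs1*, the gene of thrombospondin-1 itself, was not called, with a log2 fold change of −1.21 (FDR = 0.0581). It was at 10.9 and 28.6 CPM in the parental cells and at 10.8 and 6.18 CPM in the TRCs. *Ncl* and *Anxa1* had log2 fold changes of −1.04 (FDR = 0.00120) and −0.65 (FDR = 0.0394). *Ncl* lost the call without parental replicate 3 (FDR = 0.0872) or TRC replicate 1 (0.0688), and *Anxa1* without parental replicate 3 (0.297), TRC replicate 1 (0.330) or TRC replicate 3 (0.109), and in the quasi-likelihood test (0.0674). *Sirpa*, the receptor of CD47, was itself abundant in these cells at 456, 449, 468 and 437 CPM in the order of the libraries above, with a 95% interval of the log2 fold change of −0.36 to 0.36 (FDR = 1).

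Of the other B7, CD28 and TNF family ligands 2 of 16 were tested, and both rose. *Icosl*, the ligand of the costimulatory receptor ICOS, had a log2 fold change of 1.72 (FDR = 0.0407), lost without parental replicate 1 (FDR = 0.288), TRC replicate 1 (0.341) or TRC replicate 3 (0.0967), and also with DESeq2 (0.169). *Tnfsf9*, the ligand of 4-1BB, had 1.52 (FDR = 0.0118), lost without parental replicate 3 (0.149) or TRC replicate 3 (0.489). The quasi-likelihood test called neither *Icosl* (0.124) nor *Tnfsf9* (0.0664), and *Icosl* was also not called without the filter on low counts (0.0730). Both encode costimulatory ligands.

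Among the regulators of PD-L1, 3 of 21 tested rose and 2 fell. *Stat3*, a transcription factor activated by cytokine receptors, rose by 0.84 on the log2 scale (FDR = 0.00261), the interferon-γ receptor chain *Ifngr2* by 0.75 (FDR = 0.0157) and the HIF subunit gene *Hif1a* by 0.96 (FDR = 0.00209). The NF-κB subunits *Rela* and *Nfkb1* both had −0.66 (FDR = 0.0264 and 0.0349). *Stat3* lost the call without parental replicate 3 (0.0522) or TRC replicate 3 (0.0584), *Hif1a* without TRC replicate 1 (0.126), and *Ifngr2* without parental replicate 1 (0.145), TRC replicate 1 (0.199) or TRC replicate 3 (0.0913). *Rela* and *Nfkb1* lost it without parental replicate 3 (0.144 and 0.330), TRC replicate 1 (0.277 and 0.173) or TRC replicate 3 (0.132 and 0.269). The quasi-likelihood test called 2 of the list higher and 1 lower. The median of the list was 0.09.

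Of 12 relatives and receptors of *Pvr* and *Nectin2* 3 were tested, and 1 of them, the adhesion gene *Cadm4*, rose, from 31.3 and 25.8 CPM to 78.5 and 59.6 CPM (log2 fold change 1.27, FDR = 1.50e-05), also in each fit that left out a library. Around *Nt5e*, 3 of 16 tested genes of adenosine and ATP handling rose. None was called lower by the exact test, although 1, *Ada*, was lower at an unadjusted p under 0.05 (FDR = 0.0694), and DESeq2 and 2 other estimates of the dispersion each called 1 gene of the list lower. The quasi-likelihood test called 2 of the list higher. Those that rose were *Enpp2*, which encodes autotaxin, with 1.23 (FDR = 0.000132), the nucleotidase gene *Entpd5* with 0.93 (FDR = 0.00517) and the NAD-consuming ectoenzyme gene *Cd38* with 1.82 (FDR = 0.00608). *Entpd5* lost the call without parental replicate 1 (0.0555) or TRC replicate 3 (0.221), and *Cd38* without parental replicate 3 (0.147) or TRC replicate 3 (0.145). *Entpd1*, which encodes the ATP-hydrolysing enzyme CD39, did not pass the filter.

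Among the other galectins and their partners 4 of 13 tested genes rose. *Bsg*, which encodes the glycoprotein basigin, went from 325 and 335 CPM to 682 and 1388 CPM (log2 fold change 1.65, FDR = 7.56e-06), and the glycan-branching enzyme gene *Mgat4a* rose by 1.11 (FDR = 7.40e-05), both also in each fit that left out a library. *Lgals3bp*, the gene of a galectin-binding glycoprotein, rose by 0.78 (FDR = 0.00679) and *Lgalsl* by 0.64 (FDR = 0.0320). Without parental replicate 3, TRC replicate 1 or TRC replicate 3 these lost the call, with FDR of 0.0963, 0.0501 and 0.118 for *Lgals3bp* and 0.260, 0.127 and 0.301 for *Lgalsl*, which the quasi-likelihood test did not call either (0.0584). None fell, although 1 was lower at an unadjusted p under 0.05.

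Of 8 tested ligands of NK cells, *H2-K1* and *H2-T23*, both of which encode class I molecules read by inhibitory receptors, rose by 3.26 (FDR = 2.15e-17) and 3.89 (FDR = 1.14e-10), also in each fit that left out a library. These class I genes have near-identical relatives, so their counts are uncertain where reads could not be assigned. In the same list the class I gene *H2-D1* and the light chain gene *B2m* were not called. Their log2 fold changes were 0.37 (FDR = 0.417) and 0.12 (FDR = 0.808). Of 12 tested secreted and metabolic suppressors 3 rose, namely the angiogenic factor gene *Vegfa* with 2.12 (FDR = 0.00221), the osteopontin gene *Spp1* with 1.47 (FDR = 0.0416) and *Tgfb1* with 1.37 (FDR = 0.0461). *Vegfa* lost the call without TRC replicate 3 (0.139), *Spp1* without parental replicate 3 (0.374) or TRC replicate 3 (0.481), and *Tgfb1* without parental replicate 3 (0.388), TRC replicate 1 (0.488) or TRC replicate 3 (0.0574). DESeq2 called neither *Vegfa* (0.163) nor *Spp1* (0.0671), and the quasi-likelihood test called none of the 3 (0.0747 for *Vegfa*, 0.115 for *Spp1* and 0.126 for *Tgfb1*). *Spp1* and *Tgfb1* were also not called with library size only (0.0617 and 0.0721), without the filter on low counts (0.0748 and 0.0954) or with dispersions shrunk toward a trend (0.0527 and 0.0631).

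The exact test called 0 of 3 tested complement regulators, of which 1 was lower at an unadjusted p under 0.05, and neither DESeq2 nor the quasi-likelihood test called any. Without the filter on low counts the exact test called 1 gene of the list higher and 1 lower. *Cr1l* was at 50.5 and 48.8 CPM in the parental cells and 34.5 and 35.3 CPM in the TRCs (FDR = 0.118), and *Cd59a* at 6.32 and 4.76 CPM and 8.18 and 9.16 CPM (FDR = 0.292). Of the 15 listed receptors of the 10 proteins on leukocytes 2 were tested and 0 called, with 0 at an unadjusted p under 0.05 and 0 called by DESeq2 or the quasi-likelihood test. These were *Sirpa* and *Havcr2*, the gene of TIM-3, which was at 4.14 and 2.98 CPM in the parental cells and 1.30 and 2.64 CPM in the TRCs (FDR = 0.262).

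**Figure D4:**
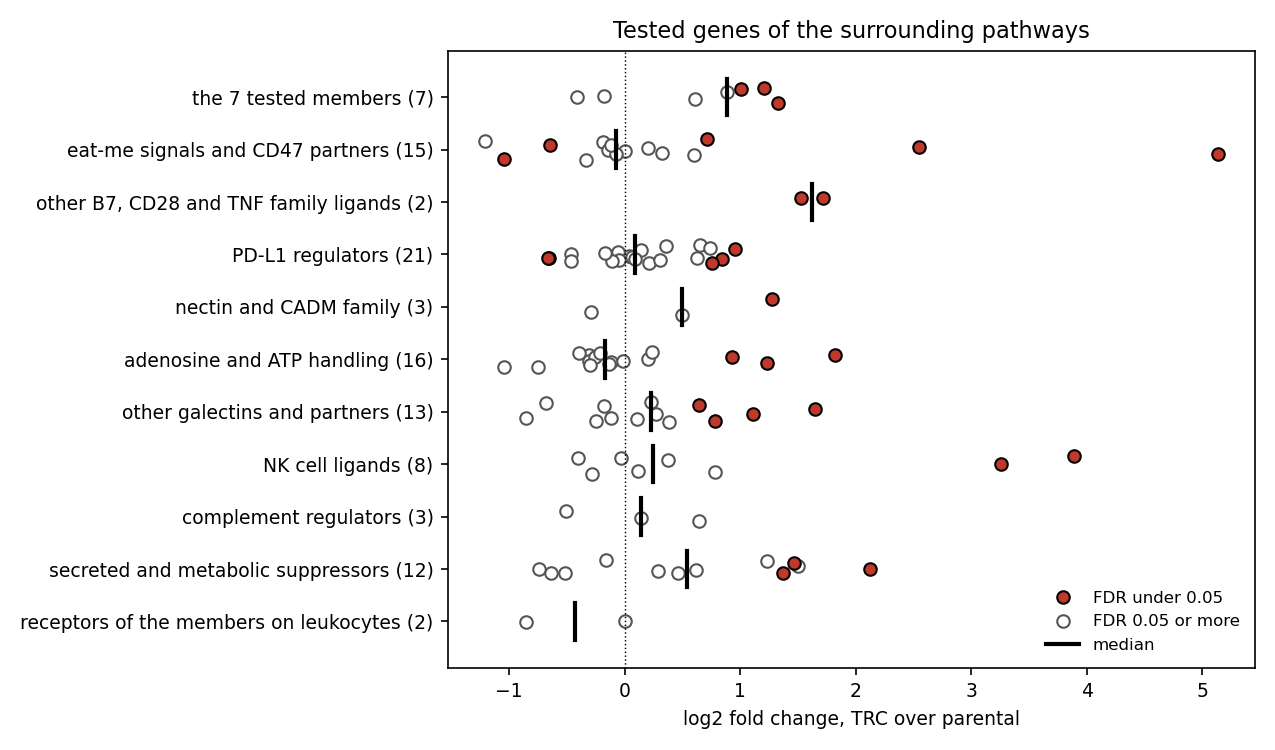
Log2 fold change of TRCs over parental cells (x axis) of each tested gene in the 10 lists and among the 7 tested members (rows, with the number tested in parentheses), with filled red points for FDR under 0.05 and a black bar for the median of each row. The largest values are those of *Stc1* at 5.14 and of *H2-T23* and *H2-K1* at 3.89 and 3.26, and the median of the 7 members is 0.89.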

How the data were processed

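RNA was sequenced from 2 libraries of parental B16F1 cells and 2 of TRCs. The deposited files give raw counts for each Ensembl gene, which the authors made without normalization by trimming single-end reads with Trimmomatic 0.35, aligning them to GRCm38 with TopHat2 2.1.0 and counting them with htseq-count. The kit was stranded, and the strand setting and mode of htseq-count are not given in the sources used here. The rows that name no gene, which held between 20.2% and 29.0% of a library, were removed.

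Following the study's methods, a gene was dropped when 3 or more of the 4 samples had less than 1 CPM, which left 11483 of 39179 genes. The study reports fewer genes in its final table and fewer called genes, so the set tested here is not identical to its set. In edgeR 4.0.16 (R 4.3.3), groups were compared by the exact test after TMM scaling, with tagwise dispersions and a prior count of 0.125, and p-values were adjusted by Benjamini-Hochberg over all genes tested. SE and 95% intervals of log2 fold changes came from DESeq2 1.42.0. Gene names, exon positions, lengths and overlaps came from GENCODE M21 of GRCm38, and promoters from RefSeq (GRCm38.p6), from 250 bases before to 50 bases after a start. The study names another annotation, an Ensembl release, for its reads. The exons that were counted may therefore differ from those whose lengths were used here. The share of transcript stretches found in genes at other places of the genome was counted by exact match, leaving out genes that overlap the locus. The test was also tested on simulated data. These gave every gene the same dispersion, so they do not show how the test performs at the spread of the genes described here. Plots were drawn with matplotlib 3.10.9.

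The 10 genes, the lists and the tests were chosen with earlier results of these data known. Named are all 10 genes, up to 4 called genes per list and direction by smallest FDR, and the 2 most abundant genes of lists without a call. *Dct*, *Col1a2*, *Cd68*, *Thbs1*, *Ada*, *Entpd1*, *H2-D1*, *B2m* and the markers at 0 were named after their values were seen. The alternatives were other filters on low counts, DESeq2 size factors, library size only, other dispersions, the quasi-likelihood test of edgeR, also with a replicate block, DESeq2's Wald test, the longest transcript as length and each library left out in turn. Dispersions shrunk toward the common value were added after the data were seen. Where a library is left out, the lone library is assumed to vary like the other group.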

Additional observations from a re-analysis of the deposited data

How the results depend on the processing

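Over the alternatives that kept all 4 libraries, 1.18 to 1.22 was found for the log2 fold change of *Cd47* (FDR 0.000406 to 0.0307), which was called in all of them. *Cd276* (1.30 to 1.33) and *Nectin2* (0.98 to 1.02) were called in all but the test with a replicate block, and *Cd274*, *Pvr*, *Lgals9* and *Lgals3* were called in none. The calls over all genes went from 1822 to 1054 with the quasi-likelihood test and those of the pathway lists from 25 to 15.

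With a replicate block in the quasi-likelihood test, 785 genes were called, 784 of them among the 1822, with 14 pathway genes and 1 member, *Cd47*. *Cd276* then had a log2 fold change of 1.32 (FDR = 0.0578) and *Nectin2* 1.02 (FDR = 0.0572). The numbers 1 and 3 were not shown to pair the libraries, since deviations of same-numbered libraries from the group means correlated across genes with r = 0.0267. Genes are not independent replicates.

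When each library was left out in turn, between 773 and 1932 genes, between 2 and 3 of the 10 members, and between 10 and 26 pathway genes were called. The log2 fold changes ranged from 0.85 to 1.48 for *Cd47*, 1.10 to 1.51 for *Cd276*, 0.78 to 1.27 for *Nectin2*, 0.48 to 1.19 for *Cd274*, 0.079 to 0.97 for *Pvr*, −0.31 to −0.08 for *Lgals9* and −2.70 to 1.01 for *Lgals3*, which turned in direction to 1.01 and 0.41. Without parental replicate 3 the called genes were 863 over all genes and 13 in the lists, and without TRC replicate 1 or TRC replicate 3 they were 773 and 773 over all genes and 15 and 10 in the lists, with fewer libraries in each fit. The cause of the other changes was not tested.

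With the length of the longest transcript, the TRC levels of *Pvr*, *Nectin2* and *Lgals9* were 16.2, 18.1 and 32.4 CPM per kilobase, since this length is shorter than that of all exons. Those of *Lgals3* and *Cd47* were 14.5 and 11.3 CPM per kilobase, which placed *Pvr* above both. *Cd24a*, *Cd200* and *Nt5e* did not pass the filter on low counts and have no fold change.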
